A study of Gallus gallus with 88 samples.

Results

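Breast muscle (Musculus pectoralis major) of 35-day-old broiler chickens was compared between birds whose eggs had been held at 38.8 °C on embryonic days 10 to 13, called later warm here, and birds whose eggs had stayed at 37.8 °C throughout, the controls. Samples were taken by their titles and labels, with 8 later warm arrays and 8 control arrays out of 88 in the series, and each array held total RNA of 1 bird. Of the 8 controls, 2 carry the label of embryonic days 7 to 10 and 6 that of days 10 to 13, but both kinds had the same incubation and formed 1 group. The other day 35 groups were early warm (38.8 °C on days 7 to 10), later cool (36.8 °C on days 10 to 13) and early cool (36.8 °C on days 7 to 10), with 8 arrays each. Embryos sampled on day 13, at the end of the same warm interval, gave 8 warm and 8 control arrays from other animals. All eggs were at 37.8 °C outside their interval, and hatched birds lived in a barn with free access to a standard diet. The labels give neither the sex nor the line of the birds.

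The pectoralis major is the main flight muscle and, in broilers, an almost purely fast-twitch, glycolytic muscle. Its fibre number is largely laid down before hatching, when myoblasts multiply and fuse, whereas growth after hatching comes from fibre enlargement with nuclei added by satellite cells. Incubation temperature alters embryonic metabolism, thyroid hormone and the timing of muscle formation, so a warm interval during this window can be asked about at its end and again at slaughter age. The comparison below answers the later question: which transcripts in the mature muscle still differed from control.

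Values are log2 signal per probe set, so a difference of 1 is a 2-fold difference in signal. Across the 16 arrays compared, the median signal was 6.32 to 6.66, each array correlated with the other day 35 arrays at a median of 0.929 to 0.944, and 202 to 448 probe sets were listed at 0, the lowest value in the data. Of 10 muscle markers 6 were measured, and skeletal actin (ACTA1) read 14.22 to 14.30, troponin T3 (TNNT3) 12.99 to 13.38 and MYOZ1 13.30 to 13.49 on these arrays, while parvalbumin (PVALB) varied from 4.54 to 9.80. HINTW, a gene of the female-specific chromosome W, was above 8 on 4 of 8 later warm and 4 of 8 control arrays and at most 3.65 on the rest of these arrays. In the sample listing, all 38.8 °C arrays of day 35 stand with controls 29, 30, 77 and 90, and all 36.8 °C arrays stand with controls 68, 70, 81 and 83. What this listing stands for is not stated, so values of the leading genes, and of many list genes, are also given against the 4 controls of the own listing block, mainly where they differ in size or direction. The mean signal of liver-made transcripts separated these blocks, as described below.

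No probe set passed the threshold between later warm and control birds. With limma, 0 of 20706 probe sets (0 percent) had an adjusted p under 0.05, and 651 (3.14 percent) had an unadjusted p under 0.05, 210 higher (1.01 percent) and 441 lower (2.13 percent) in later warm. Against the controls of the own block 0 passed as well and 504 (2.43 percent) were below that unadjusted level. A test with unequal group variances per probe set gave 0 (0 percent) and 558 (2.69 percent). Both unadjusted shares are below the 5 percent that a threshold of 0.05 gives without any change. The typical precision was a standard error (SE) of 0.171 log2 and a 95 percent interval of ± 0.346, each a median over probe sets. That interval is not adjusted for the 20706 tests. For a typical probe set at this number of arrays, a smaller difference could not pass, and a larger one could also fail. The median difference over all probe sets was -0.02, and the smallest adjusted p was 0.793.

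The gene with the smallest p was ACOT11, an acyl-CoA thioesterase that splits fatty acyl-CoA into free fatty acid and coenzyme A and was first known in mice as a cold-induced gene of brown fat. Its signal on the 8 later warm arrays was 8.12, 8.01, 8.09, 7.88, 8.03, 7.39, 7.39 and 8.04. The own-block controls read 8.30, 8.75, 8.29 and 8.81, and the other-block controls 8.70, 8.22, 8.50 and 8.48. Every later warm array therefore lay below every control, with the highest later warm value at 8.12 and the lowest control at 8.22. ACOT11 was the single probe set of 20706 with all later warm arrays below all controls (0.00483 percent), and 0 (0 percent) had them all above. This count is a description without a test. It does not show more separation for ACOT11 than arises among this many probe sets without any change. The difference was -0.64 ± 0.15 (SE, n = 8 and 8, 95 percent interval -0.95 to -0.33), with a limma p of 0.000173 and an adjusted p of 0.793, so it did not pass over all probe sets. It was -0.67 ± 0.19 against the own-block controls and -0.61 ± 0.19 against the others. Early warm birds read 8.08 to 8.74, later cool birds 7.82 to 8.94 and early cool birds 7.94 to 8.92. Each of these ranges overlapped both the control range and that of later warm birds.

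**Figure D1:**
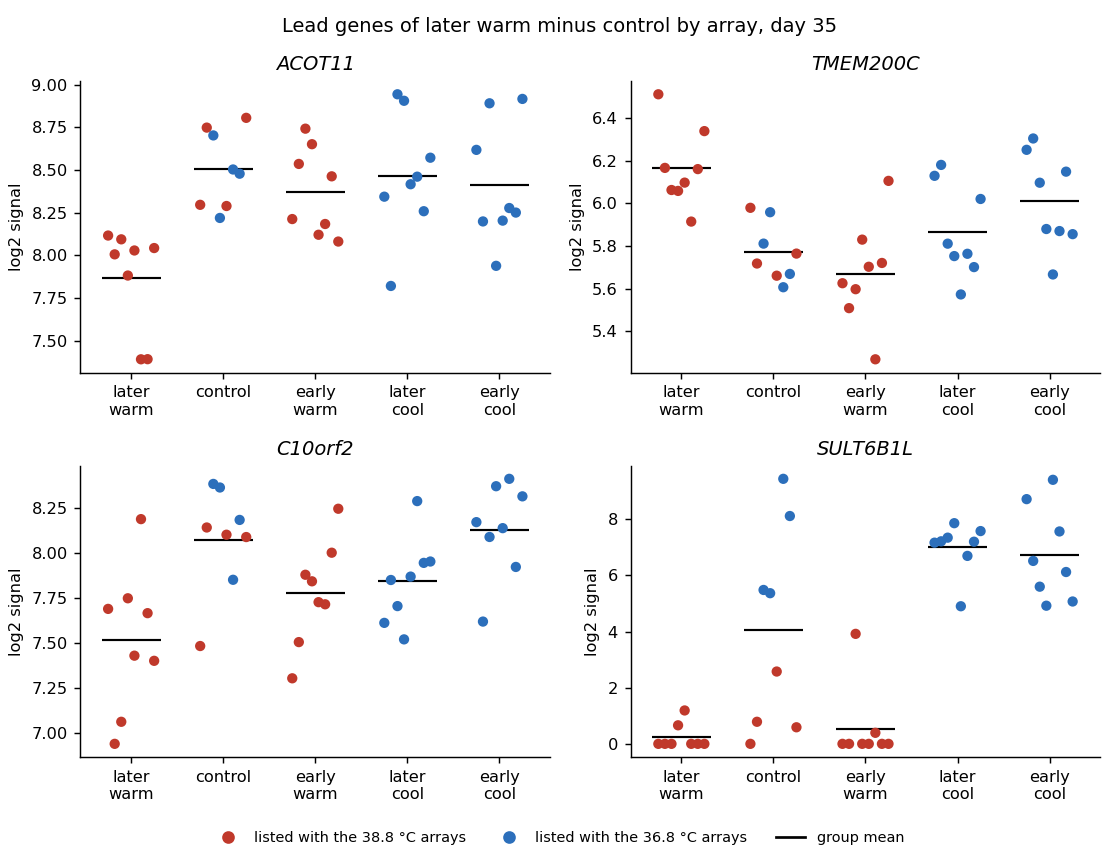
Log2 signal of ACOT11, TMEM200C, C10orf2 and SULT6B1L (vertical axes, each with its own range) on all 40 day 35 arrays, 1 point per bird, by group, coloured by listing block, with the group mean as a bar. The 8 later warm arrays lie below the 8 controls for ACOT11 (at most 8.12 against at least 8.22), while for SULT6B1L the 4 other-block controls (5.37 to 9.44) lie above the own-block controls (0 to 2.58) and the later warm arrays (0 to 1.19).

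The 20 genes with the smallest p held 19 lower and 1 higher in later warm birds. Of these, 7 kept a difference of similar size against the own-block controls (within 1.5 times of that against all 8): ACOT11, C10orf2, TMEM200C, FAM169B, CYP27A1, SNRNP200 and FRMPD4. None of them passed the threshold, and the values that follow are descriptions of the genes that ranked first.

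TMEM200C, a membrane protein gene, was the one with higher signal. It ranged from 5.91 to 6.51 (median 6.13) in later warm birds and from 5.61 to 5.98 (median 5.74) in controls, so that the ranges overlapped only at their edges. The difference was 0.39 ± 0.11 (SE, n = 8 and 8) with a limma p of 0.000697 and an adjusted p of 1, and 0.38 within the own block. Early warm birds read 5.27 to 6.11 for this gene. They were on average 0.50 below later warm birds, with an adjusted p of 0.253 in limma for that comparison. TMEM200C was chosen by the same later warm arrays, so this value is not separate evidence. Early cool birds read 5.67 to 6.31 and later cool birds 5.57 to 6.18, and both ranges overlapped that of later warm birds.

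C10orf2 encodes Twinkle, the helicase that unwinds mitochondrial DNA for its replication. Later warm arrays read 6.94 to 8.19 (median 7.55) and controls 7.48 to 8.38 (median 8.12). Later warm values of 7.67, 7.69, 7.75 and 8.19 lay inside the control range. The difference was -0.56 ± 0.15, and -0.44 ± 0.18 within the own block. A second, dimmer probe set of the gene (mean 5.37 over day 35) differed by -0.07.

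SNRNP200 encodes the RNA helicase of the U5 particle that activates the spliceosome. It was lower by a small amount on its brightest probe set, with 8.85 to 9.36 (median 9.17) in later warm birds and up to 9.71 (median 9.51) in controls, overlapping in range, a difference of -0.32 ± 0.10. All 7 of its probe sets read lower, by -0.32 to -0.14, and these share the same birds and gene and are not separate evidence. Within the own block the brightest probe set differed by -0.21 ± 0.12.

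CYP27A1, the mitochondrial sterol 27-hydroxylase, read 6.44 to 7.50 (median 7.07) in later warm birds and 7.01 to 7.86 (median 7.52) in controls, with overlap. Its difference was -0.49 ± 0.15 against all controls and -0.35 ± 0.19 within the own block. Early warm birds had a difference of -0.45 ± 0.15 from the same controls. The gene was chosen by its small p against these controls, so the early warm value is not separate evidence.

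FRMPD4, a scaffold gene studied in neuronal synapses of rodents, was dim in this muscle. It read 1.73 to 4.06 (median 2.86) in later warm birds and 3.05 to 4.82 (median 4.08) in controls. The difference was -1.08 ± 0.35 against all controls and -1.08 ± 0.44 against those of the own block, with the 2 groups overlapping between 3.05 and 4.06.

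FAM169B read 4.79 to 5.92 (median 5.33) in later warm birds and 5.71 to 6.29 (median 6.13) in controls, a difference of -0.74 ± 0.22 (-0.66 ± 0.27 within the block). One control, array 77, stood below the other controls at 5.71. Later cool birds read 4.53 to 6.65, on average 0.85 below control. Early warm birds were lower than control by 0.49 ± 0.22, and early cool birds read 5.22 to 6.38 (median 5.69). All of these groups were set against the same controls, and the gene was chosen by its small p against them. Controls that happened to read high would lower each of these differences. The low values in the other groups are therefore not separate evidence, and an effect of either temperature was not tested apart from these controls.

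The other 13 of the 20 genes changed in size by more than 1.5 times when the own-block controls were used, and most of them are known as liver products. They include FGB, the fibrinogen beta chain, SERPINC1, which is antithrombin, F2, which is prothrombin, GC, the vitamin D binding protein, FETUB, the plasma protein fetuin B, SLCO1B3, a hepatic organic anion transporter, and DPYS, a pyrimidine-degrading enzyme of liver. XDH, the xanthine dehydrogenase that makes uric acid, SULT6B1L, a sulfotransferase, CYP2AC1, a cytochrome P450, and AvBD9, a beta-defensin of host defence, behaved in the same way. In 10 of the 20 genes all 4 other-block controls lay above all 4 own-block controls. In 11 of the 20 the means of these control sets differed by more than 1 log2. The genes were ranked against means that include the other-block controls, so these counts are not separate evidence of a block difference. The same counts over all probe sets are not given here. Of 20706 probe sets, 797 (3.85 percent) were higher and 485 (2.34 percent) lower in other-block than own-block controls at an unadjusted limma p under 0.05.

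FGB shows the pattern. Later warm arrays read 1.48 to 3.88 (median 1.92), whereas controls ranged from 1.31 to 11.25. The difference was -3.24 ± 0.99 from all controls, 0.09 ± 0.77 from own-block controls and -6.56 ± 0.79 from other-block controls. SULT6B1L was listed at 0 on 6 of 8 later warm arrays and at most 1.19 on the rest. Its own-block controls read 0, 0.79, 2.58 and 0.59, and its other-block controls 5.48, 5.37, 9.44 and 8.12. The difference in means went from -3.81 ± 0.94 against all controls to -0.76 ± 0.76 within the block, and its size is uncertain near the floor of 0. Among the 13, HCLS1, an actin-binding protein of blood cells, was -0.46 ± 0.14 against all controls and -0.24 ± 0.16 within the block. C21orf62, the last of these, was -0.83 ± 0.24 and -0.52 ± 0.28 within the block.

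**Figure D2:**
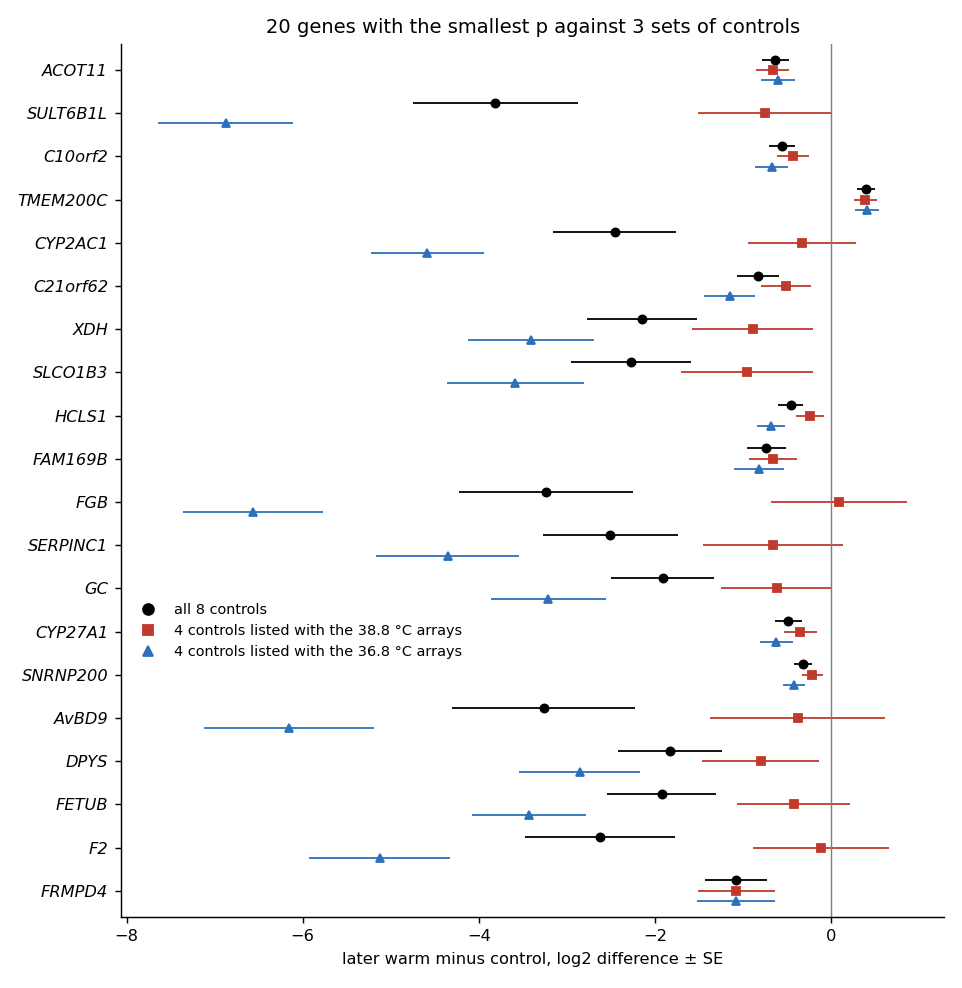
Later warm minus control difference in log2 signal ± SE (horizontal axis) for the 20 genes with the smallest p, against all 8 controls (circles), the 4 own-block controls (squares) and the 4 other-block controls (triangles). For ACOT11, TMEM200C and FRMPD4 the 3 estimates coincide, while for FGB they run from -6.56 to 0.09.

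The liver signal was followed on every day 35 array as the mean log2 signal of 8 liver-made genes: albumin (ALB), the apolipoproteins APOA1 and APOA4, transthyretin (TTR), AHSG and the fibrinogen chains FGA, FGB and FGG. This mean was 5.08 to 6.24 in later warm birds, 4.63 to 5.29 in own-block controls and 8.25 to 10.8 in other-block controls. Over all 40 arrays, each of the 20 listed with the 36.8 °C arrays was at 7.80 or above, and each of the 20 listed with the 38.8 °C arrays was at 7.20 or below. ALB itself read 5.22 to 7.41 in later warm birds, 4.47 to 6.53 in own-block controls and 11.1 to 13.2 in other-block controls. Not every member separated in this way. APOA1 read 9.12 to 10.70 in own-block and 10.03 to 10.99 in other-block controls, with overlap. APOA4 spanned only 7.45 to 8.17 over the 16 arrays compared. Whether liver RNA entered some samples or the birds differed in another way was not tested. In bulk tissue, more cells of a type and more RNA per cell cannot be told apart.

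The set of controls decided the count of calls. With only the 4 other-block controls, 50 of 20706 probe sets passed (0.241 percent), 2 higher (0.00966 percent) and 48 lower (0.232 percent) in later warm birds. With a single symbol and 1 probe set per gene these were 32 genes, all 32 lower. Of them, 22 also differed between the 2 control blocks themselves, where both sets had the same incubation. The 32 genes were called against these same other-block controls, so the overlap is not separate evidence of a block difference. Between those blocks 34 probe sets passed (0.164 percent), 33 of them (0.159 percent of all) higher in the other block. Against own-block controls the 32 genes differed by -0.96 to 1.62, with 0 at an unadjusted p under 0.05. With the liver mean as a covariate, 0 probe sets passed for later warm minus control and 531 (2.56 percent) had an unadjusted p under 0.05. Under that covariate ACOT11 was -0.61 ± 0.17, TMEM200C 0.37 ± 0.12, C10orf2 -0.53 ± 0.17 and SULT6B1L -1.38 ± 0.30 (limma adjusted p of 0.619).

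**Figure D3:**
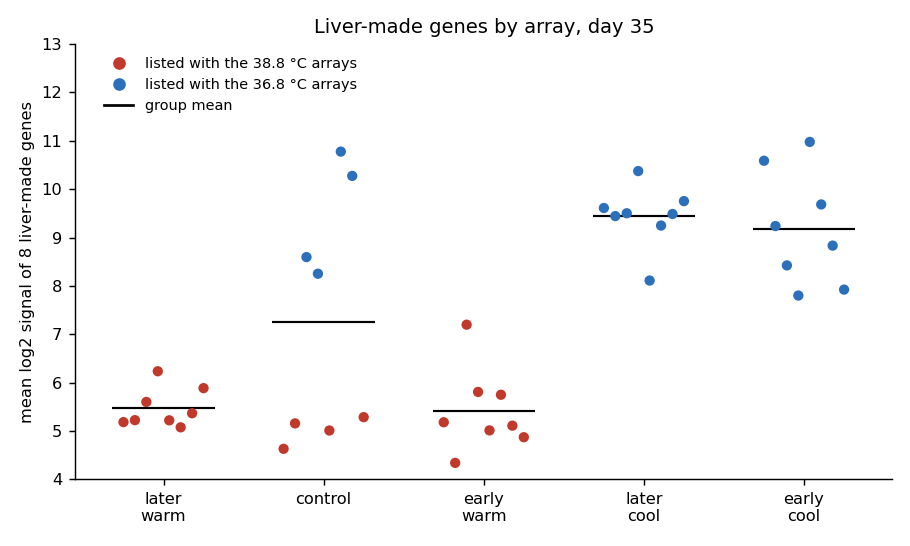
Mean log2 signal of 8 liver-made genes (vertical axis) on the 40 day 35 arrays, 1 point per bird, by group and coloured by listing block, with group means as bars. The 4 other-block controls lie at 8.25 to 10.8, above the later warm arrays (5.08 to 6.24) and the own-block controls (4.63 to 5.29).

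Gene lists for muscle structure, growth, metabolism and stress were then read as counts. Of 11528 named genes, with 1 probe set each, 5114 were above 0 in later warm minus control and the median was -0.02 (0.00 within the own block). At an unadjusted p under 0.05 were 309 genes (2.68 percent), 80 higher (0.694 percent) and 229 lower (1.99 percent), and 236 (2.05 percent) within the own block. In each of the 27 lists 0 members passed the adjusted threshold. The genes named from the lists are their 2 members with the smallest p, some of which were already given among the 20 above. MYH1B, MYOD1, PAX7, MSTN, IGF1, DIO3, PPARGC1A, HSPA8, HSPB7 and RBM3 are named for their role, whatever their p.

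Contractile genes stayed near the all-gene median. Of 15 measured fast-twitch and common sarcomere genes 7 were above 0 with a median of 0.00 (11 of 15 and 0.02 within the own block), and 0 had an unadjusted p under 0.05. MYH1A, an adult-type fast myosin heavy chain, read 11.76 to 13.29 in later warm birds and 11.63 to 13.21 in controls, a difference of 0.31 ± 0.38, and MYOM1, which links myosin at the M-band, differed by -0.13 ± 0.08 and by -0.06 ± 0.10 within the block. MYH1B, another fast myosin heavy chain, read 7.99 to 11.14 and 7.96 to 10.72 (difference -0.09 ± 0.47), so that its 95 percent interval of -1.05 to 0.87 allows changes of about 2-fold in either direction.

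Of 12 slow, cardiac and embryonic sarcomere genes 6 were above 0 (median 0.02), and 8 (median 0.07) within the own block. TNNC1, the troponin C of slow and cardiac fibres, read 11.95 to 12.66 in later warm birds and 12.48 to 12.98 in controls, a difference of -0.26 ± 0.12 at an unadjusted limma p of 0.0393. MYL2, the slow regulatory light chain, was dim and differed by -0.43 ± 0.40 (-0.28 without later warm array 31). Calcium handling genes had 2 of 8 above 0 (median -0.03), with triadin (TRDN) of the release complex at 0.15 ± 0.09 and sarcolipin (SLN), a regulator of the calcium pump, at 0.09 ± 0.17 (-0.08 ± 0.20 within the block).

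Myogenic regulators and satellite cell genes had 9 of 16 above 0 (median 0.03). SDC3, syndecan 3, a proteoglycan on satellite cells, was 6.62 to 7.37 in later warm birds and 7.03 to 7.41 in controls. Its difference of -0.25 ± 0.09 (unadjusted limma p of 0.0105) was the same within the own block, -0.25 ± 0.12. MYOD1, MYOG and PAX7, transcription factors of the myogenic lineage, differed by 0.09 ± 0.15, -0.14 ± 0.13 and -0.09 ± 0.10, and within the block by 0.03 ± 0.18, -0.23 ± 0.16 and -0.08 ± 0.12. For PAX7, which marks satellite cells, the 95 percent interval was -0.29 to 0.10.

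Growth control genes had 7 of 15 above 0 (median -0.01). Myostatin (MSTN), the inhibitor of muscle growth, read 9.68 to 11.53 in later warm birds and 9.06 to 11.48 in controls, a difference of -0.04 ± 0.32. Within the own block its difference was 0.50 ± 0.37 and against the other block -0.58 ± 0.35, so its direction depended on the controls. IGF1, a growth factor, differed by 0.12 ± 0.26 (0.33 ± 0.32 within the block) and FST, the myostatin antagonist follistatin, by -0.25 ± 0.19. IGFBP3, which binds IGF1, differed by 0.21 ± 0.14 against all controls, by 0.00 ± 0.17 within the block, and by 0.13 without control 68 or without control 70.

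Thyroid hormone genes had 6 of 12 above 0 (median -0.02), and 2 of 12 (median -0.04) within the own block. DIO1, a deiodinase that activates and clears thyroid hormone, differed by -0.94 ± 0.46 (-0.77 ± 0.57 within the block). Later warm array 34 read 0.75 for it while the other later warm arrays read 4.91 to 5.53 and controls 4.38 to 7.18, and without that array the difference was -0.38. DIO3, the inactivating deiodinase, differed by 0.08 ± 0.26, and SLCO1C1, a thyroxine transporter, by 0.24 ± 0.17 (0.16 without control 70).

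In energy metabolism, oxidative phosphorylation and citrate cycle genes had 19 of 40 above 0 (median -0.01) against all controls. Within the own block 5 of 40 were above 0 (median -0.12), with 0 at an unadjusted p under 0.05 in either comparison. Fumarase (FH) and OGDH, enzymes of the citrate cycle, differed by -0.28 ± 0.15 and -0.25 ± 0.15, and without later warm array 39 that of OGDH was -0.12. PPARGC1A, a coactivator of mitochondrial genes, read 7.29 to 8.16 and 7.29 to 8.71, with a difference of -0.06 ± 0.18 against all controls and -0.34 ± 0.21 within the block.

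Glycolysis and glycogen genes had 9 of 21 above 0 (median -0.02) and 5 of 21 (median -0.06) within the own block, with PYGL, the liver form of glycogen phosphorylase, at -0.20 ± 0.10 and -0.07 ± 0.12 within the block, and PFKL, the liver phosphofructokinase, at -0.16 ± 0.10 and -0.02 ± 0.12. Fatty acid oxidation and uptake had 8 of 23 above 0 (median -0.06), with ETFA, an electron carrier of beta-oxidation, at -0.15 ± 0.12 (0.00 ± 0.14 within the block) and lipoprotein lipase (LPL) at -0.27 ± 0.23 (-0.17 without later warm array 60). Sterol and fatty acid synthesis had 5 of 15 above 0 (median -0.12, 0.00 within the block). In that list HMGCS1, which makes the precursor of mevalonate, differed by -0.38 ± 0.26 and by -0.07 ± 0.30 within the block, and FDFT1, squalene synthase, by -0.23 ± 0.14 and -0.10 ± 0.18. Without control 81 the difference of HMGCS1 from all controls was -0.16.

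Immediate early and stress genes had the lowest share of members above 0 among the 27 lists when set against all controls. Of 16 measured, 2 were above 0 and the median was -0.17, and 3 (0 higher, 3 lower) had an unadjusted p under 0.05. Within the own block 5 of 16 were above 0 and the median was again -0.17. NR4A3, a nuclear receptor gene that exercise induces in mammalian muscle, read 6.91 to 9.27 (median 7.94) in later warm birds and 8.15 to 9.53 (median 8.96) in controls. Among later warm arrays 7 of 8 were at 8.23 or below, and among controls 7 of 8 were at 8.32 or above. These cuts were read from the values themselves, and the share of all probe sets with such a split is not given here. The split is therefore a description without a test. The 95 percent interval of the difference was -1.75 to -0.24 (difference -0.99 ± 0.46 within the block). KLF2, a transcription factor that blood flow induces in endothelium, read 6.89 to 8.09 and 7.30 to 8.21, with a difference of -0.50 ± 0.16 and of -0.25 ± 0.19 within the block. The adjusted limma p of both genes was 1. How and when each bird was handled before sampling is not given in the sources used here.

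Heat shock and chaperone genes had 13 of 25 above 0 (median 0.01), and 18 of 25 (median 0.05) within the own block. HSPB8, a small heat shock protein of muscle, read 10.51 to 11.24 in later warm birds and 9.93 to 10.82 in controls, a difference of 0.30 ± 0.16, and HSP90AB1 differed by 0.25 ± 0.19 (0.08 ± 0.23 within the block, and 0.14 without later warm array 39). HSPA8, the constitutive HSP70 chaperone, differed by -0.08 ± 0.14 and HSPB7 by 0.08 ± 0.39. RBM3, an RNA-binding protein induced by mild cold in mammals, differed by 0.11 ± 0.17. For these genes the later warm and control ranges overlapped.

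Among further lists, protein breakdown and autophagy had 10 of 18 above 0 (median 0.01), with the autophagosome protein GABARAPL1 at 0.30 ± 0.17 (0.17 without control 29) and cathepsin D (CTSD) at -0.18 ± 0.13. Amino acid and unfolded protein response genes had 5 of 16 (median -0.07) and 8 of 16 (median 0.04) within the own block, with HERPUD1 at -0.24 ± 0.13 and PHGDH, of serine synthesis, at -0.86 ± 0.49 (0.11 ± 0.53 within the block, and -0.54 without control 81). Hypoxia and vessel growth had 8 of 12 (median 0.04). VEGFA, the vascular growth factor, read 8.50 to 9.36 in later warm birds and 9.01 to 9.87 in controls, a difference of -0.28 ± 0.13 (-0.33 ± 0.17 within the block), and PDK1 differed by 0.15 ± 0.13 (0.08 ± 0.16 within the block).

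Stretch and load response genes had 7 of 10 above 0 (median 0.13) and 9 of 10 (median 0.50) within the own block, in each case with 0 at an unadjusted p under 0.05. In this list MUSTN1, a small protein of growing muscle, was 0.40 ± 0.39 and 0.86 ± 0.46 within the block, and ANKRD1, a titin-bound strain-responsive protein, was -0.34 ± 0.28 and 0.00 ± 0.34. Without later warm array 39 or control 29 the difference of MUSTN1 was 0.26 or 0.25, and without later warm array 58 or control 68 that of ANKRD1 was -0.18 or -0.22. Circadian clock genes had 5 of 9 above 0 (median 0.04) and 4 of 9 (median -0.04) within the block, with NPAS2 at -0.18 ± 0.11 and CLOCK at 0.16 ± 0.12 (0.01 ± 0.14 within the block). Cell cycle genes had 12 of 27 (median -0.02) and 17 of 27 (median 0.10) within the block, with MCM5 at -0.17 ± 0.12 and cyclin E2 (CCNE2) at 0.21 ± 0.18. Ribosomal proteins had 27 of 44 (median 0.03), with RPS2 at 0.17 ± 0.11 and RPSAP58 at -0.14 ± 0.08 (-0.02 ± 0.12 and 0.01 ± 0.09 within the block).

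**Figure D4:**
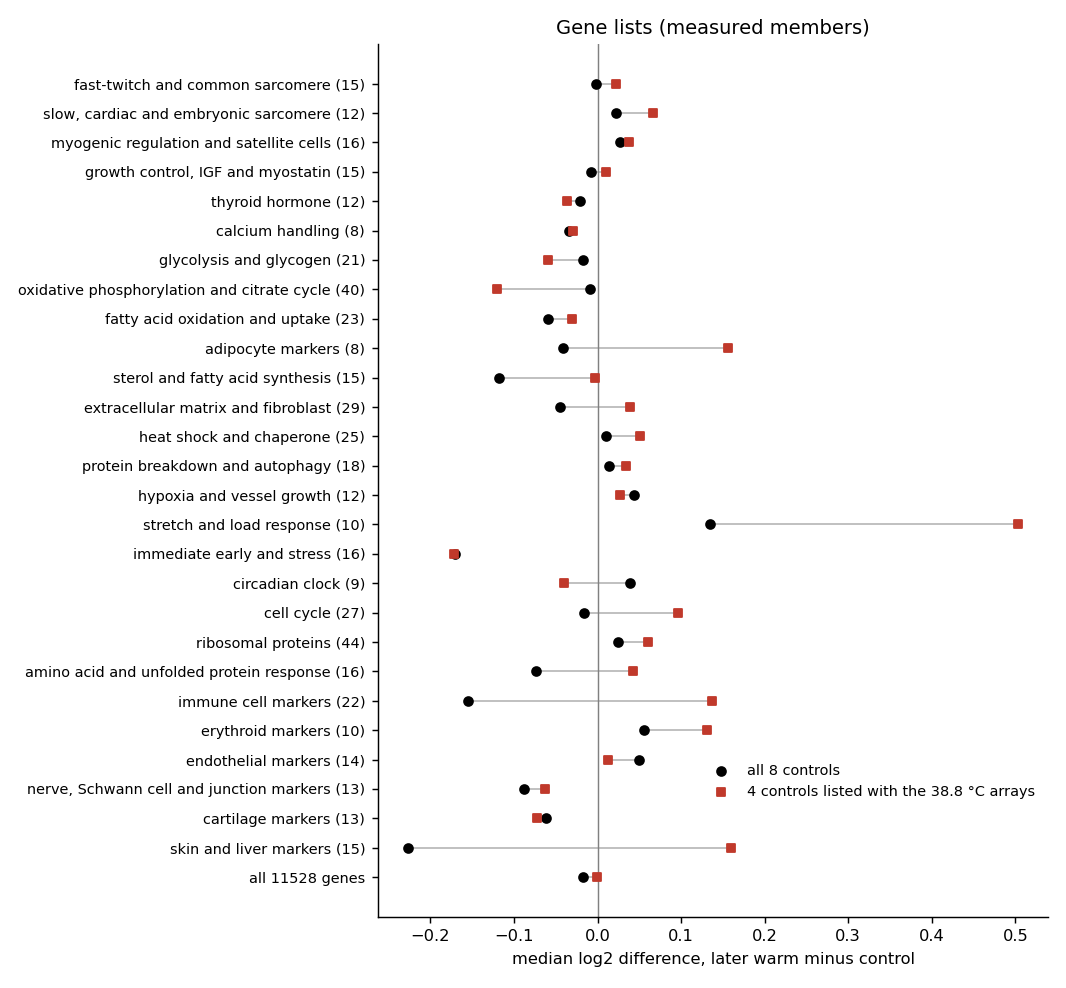
Median log2 difference of later warm minus control (horizontal axis) for 27 gene lists with the number of measured members, and for all 11528 genes, against all 8 controls (circles) and the 4 own-block controls (squares). Medians run from -0.23 to 0.13 against all controls, and 9 lists change sign within the block.

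Markers of some other cell types moved with the choice of controls. Immune cell markers had 5 of 22 above 0 (median -0.16) against all controls and 18 of 22 (median 0.14) within the block. CD79B of the B-cell receptor was 0.30 ± 0.12 and CD3E of the T-cell receptor -0.41 ± 0.30 (0.02 ± 0.35 within the block, and -0.16 without control 68). The mean log2 signal of the immune list was 6.55 to 7.34 in later warm birds, 6.33 to 7.12 in own-block controls and 6.86 to 7.74 in the others. The part of these cells in the results was not tested.

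Skin and liver markers had 2 of 15 above 0 (median -0.23) and 10 of 15 (median 0.16) within the block. Its 8 liver members had 0 above 0 against all controls (median -1.98) and 6 above 0 within the block (median 0.36). AHSG, the plasma protein fetuin A, differed by -1.87 ± 0.65. Within the block its difference was -0.45 ± 0.70, where 2 liver members, AHSG among them, were below 0. The 7 skin members had a median of -0.04 against all controls and 0.06 within the block. Adipocyte markers had 4 of 8 above 0 (median -0.04, and 6 of 8 with a median of 0.16 within the block), with PCK1, which makes glycerol precursors in fat and glucose in liver, at -0.59 ± 0.43 and 0.33 ± 0.47. Without control 81 the difference of PCK1 was -0.14, and without control 83 it was -0.38.

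Extracellular matrix and fibroblast genes had 10 of 29 above 0 (median -0.04) and 19 of 29 (median 0.04) within the block, with fibronectin (FN1) at -0.26 ± 0.20 and CCN2 at -0.22 ± 0.20. Without later warm array 58 that of FN1 was -0.15, and without control 81 or later warm array 39 that of CCN2 was -0.13 or -0.34. Erythroid markers had 7 of 10 (median 0.05) and 9 of 10 (median 0.13) within the block, with the globins HBA1 at 0.37 ± 0.27 (0.22 without control 68) and HBE at 0.19 ± 0.17. Endothelial markers had 9 of 14 (median 0.05), with the transcription factor ERG at 0.29 ± 0.14 (unadjusted limma p of 0.0389) and the junction protein ESAM at -0.14 ± 0.09. Nerve, Schwann cell and junction markers had 3 of 13 (median -0.09) and 6 of 13 (median -0.06) within the block, with agrin (AGRN) at -0.19 ± 0.11 and its receptor LRP4 at -0.23 ± 0.18 (-0.07 ± 0.21 within the block). Cartilage markers had 3 of 13 (median -0.06) and 5 of 13 (median -0.07) within the block, with COL9A3 at -0.22 ± 0.12 (-0.14 without control 90) and MATN3 at -0.42 ± 0.33. The difference of MATN3 was -0.75 without control 70, -0.26 without control 68 and -0.22 without later warm array 58.

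The interval of warming was compared directly between later warm and early warm birds, which share a listing block. One probe set of 20706 passed (0.00483 percent), that of BG8, a gene of the B-G family of the chicken major histocompatibility complex on chromosome 16. BG8 read 2.91 to 5.23 (median 4.26) in later warm birds and 0 to 3.73 (median 0.67) in early warm birds, 4 of which were listed at 0. The difference was 3.13 ± 0.54 (SE, n = 8 and 8, limma adjusted p of 0.0205), its size being uncertain near the floor. Controls read 1.31 to 5.21, and later warm differed from them by 1.05 ± 0.54 and early warm by -2.09 ± 0.54. Early warm array 11 had the lowest median correlation with the other day 35 arrays, 0.901, and without it the adjusted p was 0.0963 and 0 probe sets passed. At an unadjusted p under 0.05 were 1014 probe sets (4.9 percent) with that array and 873 (4.22 percent) without it. ACOT11 was lower in later warm than in early warm birds by 0.50 ± 0.15 (difference -0.50, adjusted p of 0.615), which did not pass. The gene had been chosen by the same later warm arrays, so this value is not separate evidence.

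The direction of the temperature change was compared between later warm and later cool birds, which lie in different listing blocks, so that block and temperature cannot be told apart except through the controls. In this comparison 53 probe sets passed (0.256 percent), 5 higher (0.0241 percent) and 48 lower (0.232 percent) in later warm. With 1 probe set per named gene these were 37 genes, 33 lower and 4 higher, and 22 also passed between the 2 control blocks. The lower genes were led by SULT6B1L (-6.77 ± 0.94), CYP2AC1 (-4.47 ± 0.70), FGB (-6.19 ± 0.99), CYP3A5 (-5.06 ± 0.83), a drug-metabolising cytochrome, LBFABP (-4.20 ± 0.70), the liver fatty acid binding protein, and tyrosine aminotransferase, TAT (-5.20 ± 0.87). With the listing block as a term, or with the liver mean as a covariate, 0 passed. The 4 higher genes, chosen after their values were seen, were ATP5O, a subunit of ATP synthase (0.52 ± 0.12, limma adjusted p of 0.0340), NUDCD1 (0.59 ± 0.14), TMEM237 (0.57 ± 0.13) and AKAP6, an anchor of protein kinase A (0.63 ± 0.15).

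The same warm interval read at its end, in embryos of day 13, is set beside day 35. With all 48 embryo arrays in the fit, 0 of 20706 probe sets (0 percent) passed between warm and control embryos and 1223 (5.91 percent) had an unadjusted p under 0.05. The 20 genes above differed at embryonic day 13 by -0.29 to 0.19, and 10 of 20 had the sign they had at day 35. Of the 19 lower at day 35, 9 were also lower at embryonic day 13. Over all 11528 named genes, 8025 were above 0 and 3503 below at embryonic day 13 (median 0.06), against 5114 above 0 at day 35. ACOT11 read 9.12 to 9.46 in warm embryos and 8.78 to 9.33 in control embryos, a difference of 0.15 ± 0.10 against -0.64 ± 0.15 at day 35. The difference between ages was -0.79 ± 0.18 with a limma adjusted p of 0.517, the smallest of that comparison. It includes the day 35 values by which ACOT11 was chosen and is not separate evidence. For the difference between ages 0 probe sets passed (0 percent), and 991 (4.79 percent) had an unadjusted p under 0.05. SULT6B1L and HCLS1, the other genes with the smallest p between ages, had differences of -3.75 ± 0.97 and -0.59 ± 0.16. Their day 35 part was taken against the controls of both listing blocks. Against own-block controls alone that part was -0.76 ± 0.76 for SULT6B1L and -0.24 ± 0.16 for HCLS1.

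MIR125B2, the gene of a microRNA precursor on chromosome 1 whose family acts in muscle differentiation in mice, read 6.18 to 6.57 in warm and 5.33 to 6.13 in control embryos, without overlap. The share of all probe sets without overlap at that age is not given here, so this separation is a description without a test. MIR125B2 was chosen because it was known from earlier results of these data at embryonic day 13. Its embryonic difference is therefore not separate evidence. That embryonic difference was 0.69 ± 0.18 in the 48-array fit, with a limma adjusted p of 0.380, and it passed (adjusted p of 0.0292 with limma) when the 24 arrays of day 13 were fitted alone, as the single call among all probe sets (0.00483 percent). At day 35 MIR125B2 was dim. It read 2.73 to 4.42 in later warm birds and 2.57 to 4.42 in controls, a difference of 0.12 ± 0.39 with the groups overlapping throughout. Within the own block the day 35 difference was -0.29 ± 0.47, and the difference between ages was -0.57 ± 0.43, which did not pass. The microarray probe set reads the precursor transcript, not the mature microRNA.

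**Figure D5:**
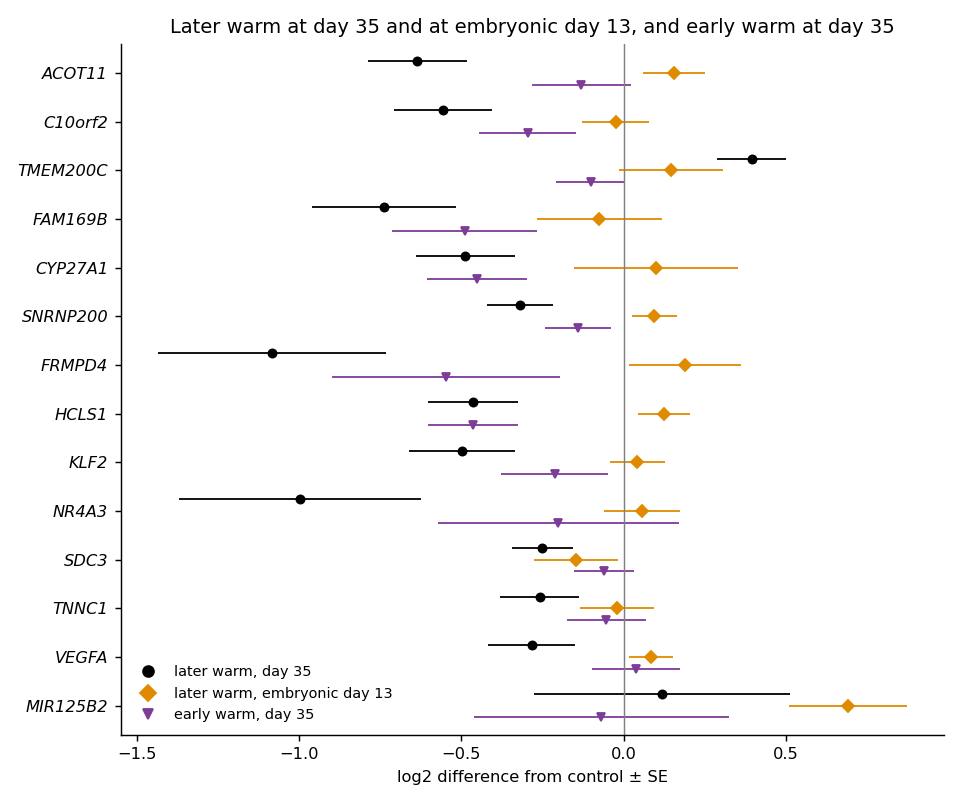
Log2 difference from control ± SE (horizontal axis) of 14 genes for later warm birds at day 35 (circles), warm embryos at embryonic day 13 (diamonds) and early warm birds at day 35 (triangles, with the same controls as the circles). ACOT11 is at -0.64, 0.15 and -0.13, and MIR125B2 at 0.12, 0.69 and -0.07.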

How the data were processed

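The authors deposited 1 value per probe set and array from Affymetrix 1-colour gene arrays, read here as log2 signal since values run from 0 to 20.9. The submitters' processing notes name GCOS 1.1.1, while how probes were summarised and normalized was not given in the sources used here. Per the labels' protocols, RNA of single tissue samples was DNase-treated and labelled as biotinylated cRNA. Of 20804 rows 98 are control probe sets, and 20706 were tested. Symbols of the platform annotation were updated by Entrez identifier (11727 matched) to assembly GRCg7b; 12300 probe sets have 1 symbol (11528 genes), 256 several and 8150 none. A gene with several probe sets is shown by the brightest.

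Tests used limma 3.58.1 (R 4.3.3), 2-sided, on all 40 day 35 arrays with a shared spread, Benjamini-Hochberg adjusted over 20706 probe sets at a threshold of 0.05. The fit was tested on simulated data. Embryos were fitted on 48 arrays and the difference between ages on 88. The members and the 27 lists were chosen with earlier results of these data known; 478 of 699 listed names were measured. Named genes were the 20 with the smallest p where fewer than 10 passed, the 2 with the smallest p per list, up to 6 that passed (otherwise 3) in each further comparison, and fixed genes, of which HSP90AA1 and CIRBP were not measured. The liver mean was chosen after the data were seen. Arrays give no read depth; their number limits the precision.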

Additional observations from a re-analysis of the deposited data

Results flagged for a closer look

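Each of 88 named genes was examined in the later warm and in the control group. Of these 176 groups, 15 held 1 array far from the other 7 by Dixon's criterion. Chance alone gives about 1 in 20 for independent, normally distributed values. Some of these genes lie near the floor, arrays recur, and the controls come from both listing blocks. An excess of outlying arrays can therefore not be read from this count. In later warm birds, low arrays were 43 for SERPINC1 (listed at 0, others 2.73 to 4.17) and PHGDH (4.85, others 5.89 to 6.50), 31 for GC (1.30, others 3.92 to 5.44), 34 for DIO1 (0.75, others 4.91 to 5.53), 39 for OGDH (10.02, others 10.66 to 11.21) and 53 for TAT (listed at 0, others 3.18 to 4.29). High arrays in later warm birds were 43 for FGB (3.88, others 1.48 to 2.58) and 34 for MYH1B (11.14, others 7.99 to 9.45).

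In controls, array 29 was low for FDFT1 (7.92, others 8.46 to 8.78), GABARAPL1 (6.29, others 7.02 to 7.56) and LRP4 (5.02, others 5.67 to 6.12). Array 77 was low for FAM169B (5.71, others 6.11 to 6.29) and array 70 for MATN3 (3.50, others 5.77 to 6.95). Array 81 was high for HMGCS1 (10.71, others 8.66 to 9.53) and array 90 for MYOD1 (10.40, others 9.62 to 9.96).

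BG8 was flagged because the effects of the later and the early warm interval differed in a test of the difference itself, by 3.13 log2 (limma adjusted p of 0.0205), a call that ended without early warm array 11.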

How the results depend on the processing

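The count of 0 probe sets between later warm and control birds was the same in the fit of these groups alone, with the listing block, with the controls labelled days 10 to 13, with quantile normalization, without dim probe sets, with a trended and robust prior, with 1 probe set per gene, with a chromosome W or liver covariate, with unequal group variances and in the second deposited table. It was 50 with other-block controls only. Leaving out each of the 16 arrays gave 0 to 0 calls, with 579 to 1007 probe sets at an unadjusted p under 0.05, the highest without control 29. Later warm minus early warm had 1 call, 0 without dim probe sets and 0 without early warm array 11. Later warm minus later cool had 53, with 88 after quantile normalization and 0 with the block or the liver covariate. The embryonic day 13 count of 0 was 1 with the 24 arrays of that day. The single non-overlapping probe set became 5 after quantile normalization. Against own-block controls the count was 34 of 20706, with 24 lower (0.116 percent) and 10 higher (0.0483 percent) in later warm. The own block holds fewer controls, and a smaller set is fully separated more easily without any change. The count of 34 therefore does not show more separation within the block. Where not stated, the cause was not tested.

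Of 88 named genes, 14 changed sign with the block: MIR125B2 (-0.29), SLN (-0.081), RPS2 (-0.015), ANKRD1 (0.0015), RPSAP58 (0.0061), CD3E (0.017), HSPA8 (0.019), CYP3A5 (0.052), LBFABP (0.063), FGB (0.088), MYH1B (0.11), PHGDH (0.11), PCK1 (0.33) and MSTN (0.50). With block and quantile normalization they were MIR125B2 (-0.32), SLN (-0.075), RPS2 (-0.028), ETFA (0.011), HSPA8 (0.013), RPSAP58 (0.015), CD3E (0.030), LBFABP (0.045), CYP3A5 (0.052), FGB (0.086), PHGDH (0.11), MYH1B (0.16), PCK1 (0.32) and MSTN (0.48). With the liver covariate they were MIR125B2 (-0.016), HSPA8 (0.025), MYH1B (0.034), PHGDH (0.054), HMGCS1 (0.071), MSTN (0.24) and PCK1 (0.27). With other-block controls they were IGF1 (-0.091), MUSTN1 (-0.058), PPARGC1A (0.22) and PVALB (0.60), and with controls labelled days 10 to 13 DIO3 (-0.030), PVALB (0.15) and PPARGC1A (0.17). Leaving out 1 array turned the sign of 8 genes, over -0.068 to 0.17 for HSPB7, -0.021 to 0.20 for IGF1, -0.027 to 0.26 for MIR125B2, -0.26 to 0.093 for MSTN, -0.40 to 0.15 for MYH1B, -0.14 to 0.063 for PPARGC1A, -0.44 to 0.31 for PVALB and -0.027 to 0.19 for RBM3. No paired analysis was possible because later warm and control arrays share no animal number.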

Other observations

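Genes with the smallest p against the own-block controls, chosen after their values were seen, were led by ACOT11. This ranking uses the same later warm arrays and a part of the same controls, so it is not separate evidence for ACOT11. KCTD14 differed by -0.66 ± 0.19 within the block and -0.40 against all controls. GABRD, a subunit of the receptor for the transmitter GABA, differed by -1.32 ± 0.42 and -0.71, and GYG2, a glycogenin that primes glycogen, by -0.52 ± 0.17 and -0.34. DGKB, a diacylglycerol kinase, was higher by 0.99 ± 0.31 and 0.30. The adjusted limma p of each was 1.

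ACE, the angiotensin-converting enzyme, read 5.65 to 6.78 in later warm birds, 6.76 to 8.03 in own-block controls and 5.85 to 6.50 in other-block controls. Its difference was -1.01 ± 0.33 within the block and 0.00 ± 0.32 against the others. In warm embryos of day 13 its difference was 0.76 ± 0.19 against all 8 control embryos of that day. ACE was read because it ranked second at embryonic day 13 among the 24 arrays of that day, after MIR125B2. Its embryonic difference is therefore not separate evidence. None of these ACE differences passed the adjusted threshold.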
